A study of Rattus norvegicus with 4 samples.

Results

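Autophagy is the route by which a cell encloses part of its own content in a double membrane and delivers it to lysosomes, and the kinase complex mTORC1 holds it in check while nutrients are plentiful. The genes described here are 38 autophagy and mTORC1 control genes, chosen by name: the ULK1 initiation complex, the class III phosphoinositide kinase complex, lipid supply and membrane binding proteins, the ubiquitin-like conjugation enzymes, the LC3 and GABARAP proteins, cargo receptors, and mTORC1 with its regulators. An array probe was counted for a gene when the accession printed for it belonged to that rat gene in RefSeq. By that rule 35 of the 38 genes had a probe, out of 16500 named genes measured, and 53 probes were used for them. The lipid kinase subunit Pik3r4, the inhibitor of autophagosome maturation Rubcn and the LC3-cleaving protease Atg4b were not matched to a probe and were not analysed here.

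All samples came from NR8383, an established line of rat alveolar macrophages obtained by washing out the lung of a normal rat, in which attached and free-floating cells grow side by side. Cells after 20 passages had been kept in medium with 15% heat-inactivated fetal bovine serum and antibiotics, plated 48 h earlier in 25 cm2 flasks, and held for 4 h in medium with 10% serum. The labels add the letters ALI to this condition without spelling them out. There were 4 biological replicates of this single serum control, each on its own one-colour array, so there was no treatment, genotype or time to compare. The questions that the design allows are which of these genes the line expressed and how far the replicates differed. Of 12 macrophage markers 11 were detected on all 4 arrays, the exception being Marco on 1 array, and of 12 measured markers of other cell types 3 were (Pecam1, Cdh5 and Cd3d) and 8 were detected on none.

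In macrophages autophagy clears damaged organelles, removes protein aggregates and captures bacteria that escape from phagosomes, and part of its conjugation machinery also attaches LC3 to single-membrane phagosomes. The ULK1 kinase complex starts the process, the Beclin 1 and VPS34 complex marks the membrane with phosphatidylinositol 3-phosphate, and the conjugation enzymes attach LC3 and GABARAP proteins to lipid. Receptors such as p62, the product of Sqstm1, then bind both ubiquitin-tagged cargo and LC3. Amino acids bring mTORC1 to the lysosome surface through the Ragulator and Rag proteins, where Rheb switches it on unless the TSC complex or the energy sensor AMPK intervenes.

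NR8383 cells expressed nearly all of this machinery. Of the 35 genes measured, 32 were detected, meaning that at least 1 of their probes was flagged well above background by the scanner software on each of the 4 arrays (91.4%), against 53.1% of all named genes. All 6 measured conjugation genes, all 5 LC3 and GABARAP genes, all 5 genes for receptors and the mitophagy kinase, and all 7 mTORC1 genes were detected, as were 4 of 5 initiation genes, 3 of 4 nucleation genes and 2 of 3 genes for lipid supply and phosphoinositide binding. The initiation subunit Atg13 was detected on 2 arrays and the Beclin 1 partner Uvrag on 3. Wipi1, which encodes a protein that binds phosphatidylinositol 3-phosphate, was detected on no array, a call shared by 34.4% of all named genes. Arrays were few and their number limits the precision. With limma against negative control spots, at an adjusted p under 0.05, the count was 34 of 35, with Atg13 (adjusted p = 0.00024) and Uvrag (5.66e-05) added, beside 69.3% of all named genes. The scanner's looser positive-and-significant flag, on all 4 arrays, also gave 34 of 35, beside 66.9%.

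**Figure D1:**
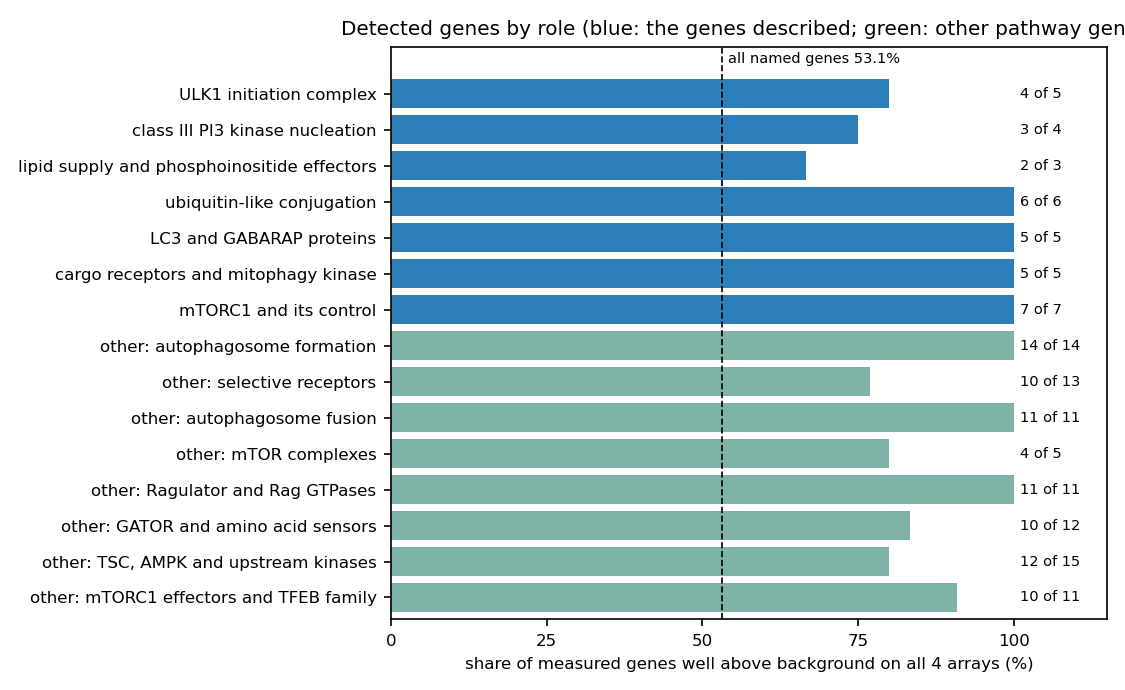
Bars give the percentage of measured genes that were well above background on all 4 arrays, for each role among the 38 genes (blue) and each list of other pathway genes (green), with counts at the right. The dashed line marks the 53.1% of all named genes, and every bar ends to the right of it, although several lists hold 5 genes or fewer.

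The levels of the 32 detected genes differed little between replicates. Levels are log2 signals over the array's own 75th percentile of probe signals (83.4, 112, 126 and 167 for replicates 1 to 4), so 0 is that percentile and 1 unit is a factor of 2. They can be set side by side only across arrays, not across genes, because probes bind with different strength. The SD of a gene over the 4 arrays had a median of 0.19 in these genes, beside 0.24 in all 8769 detected genes, and ranged from 0.087 for Optn to 0.45 for Ulk2. Without replicate 1 the median SD was 0.13, beside 0.15 in all detected genes. For 21 of the 32 genes the largest distance from their mean was on replicate 1, beside 54.6% of all detected genes. It was on replicate 2 for 5 genes (16.6%), on replicate 3 for 3 (9.92%) and on replicate 4 for 3 (18.8%). Replicate 1 lay below the mean for 11 of these (25.1% of all detected genes) and above it for 10 (29.5%). It was the lowest array for 14 genes (32.8%) and the highest for 13 (42.3%), and 16 genes read higher there than the mean of the others (55.8%).

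**Figure D2:**
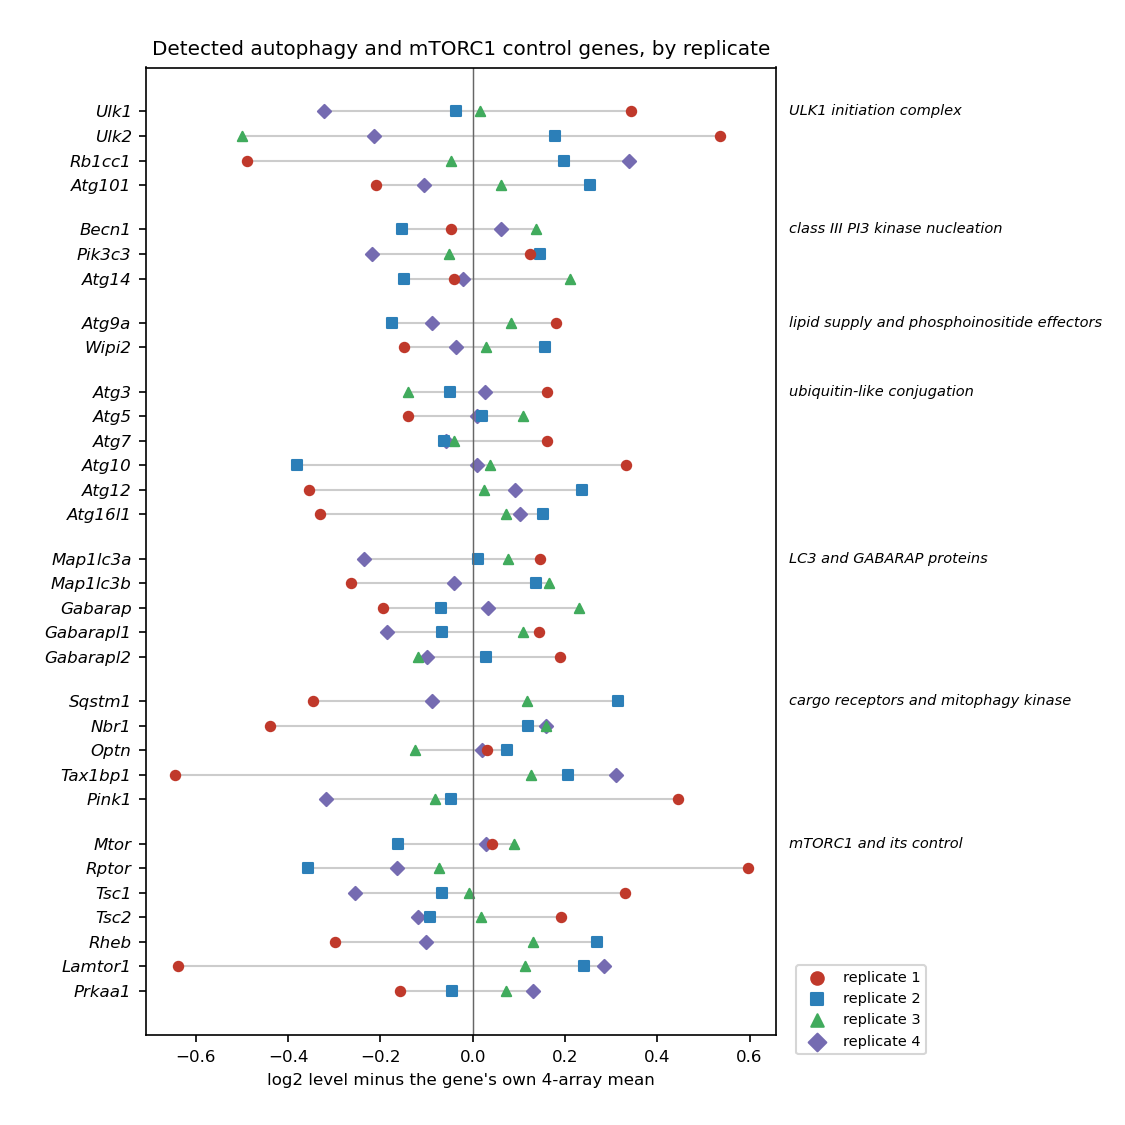
Each row is 1 detected gene, and the 4 symbols are its log2 level on replicates 1 to 4 minus its own mean over the arrays, with genes grouped by role. Replicate 1 sits at the left end for 14 genes and at the right end for 13, with the greatest distances in Tax1bp1, Lamtor1 and Rptor.

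On replicate 1, 7 of the 32 genes stood farther from the other arrays than the rest, in both directions. A difference of 0.5 between replicate 1 and the mean of the others was used to single out genes, a value chosen after the data were seen. Below it lay the autophagy receptors Tax1bp1 and Nbr1, the initiation scaffold Rb1cc1 and the Ragulator subunit Lamtor1, which makes 4 of 32 genes, beside 13.5% of all detected genes. Above it lay the mTORC1 subunit Rptor, the kinase Pink1 and the initiation kinase Ulk2, 3 of 32 genes, beside 18.5%. Neither count was above the share over all detected genes in the main processing. Under quantile normalization the low count was above it, 6 of 32 genes beside 14.45%. Scaling to detected probes only gave 7 of 32, beside 17.37%. Without replicate 3 or 4 it was 5 of 32 each, beside 13.78% and 13.43%. It stayed below with the median or first probe, no filter on dim probes, a dim region omitted, or replicate 2 left out. The high count stayed below its share under every alternative. The genes nearest to the limits were Nbr1 at -0.59 and the conjugation gene Atg12 at -0.47 on the low side, and Pink1 at 0.59 and Ulk1 at 0.46 on the high side. All 7 kept their direction under each of the 10 alternatives to the processing, but not their size. With normexp background correction on median signals no gene lay more than 0.5 higher: Ulk2 differed by 0.46, Pink1 by 0.41 and Rptor by 0.32. On the low side Rb1cc1 then differed by -0.065, while Tax1bp1, Lamtor1 and Nbr1 stayed beyond the limit. The offset of 50 that normexp added to every signal compresses log2 differences of dim probes by construction. Ulk2 and Rb1cc1 were dim, so the smaller size of their differences under normexp was partly set in advance. Sqstm1 (-0.81) and Map1lc3b (-0.52) passed the limit under normexp. That makes 5 of 32 genes on the low side, again above the share, which was 11.83% of all detected genes. Such a difference between 1 array and 3 has no replicate of its own and was not tested.

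**Figure D3:**
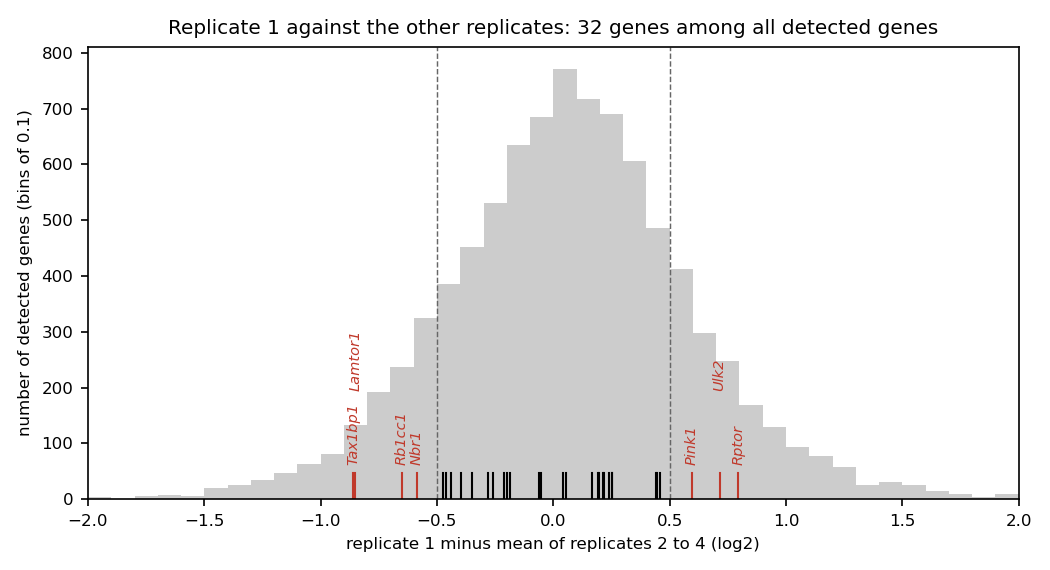
Grey bars count all 8769 detected genes by the difference between replicate 1 and the mean of replicates 2 to 4 on the log2 scale, in bins of 0.1, and short lines mark the 32 detected autophagy and mTORC1 genes. Dashed lines mark 0.5 on both sides, and the 7 named genes beyond them lie within the spread of all genes.

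Replicate 1 also had the dimmest scan and a shift in cell type markers, and the part of either in these differences was not tested. The share of spots well above background was 50.9% there and 58.9% on replicate 4. Of the 11 detected macrophage markers, 5 (Csf1r, Mrc1, Pparg, Fcgr1a and Siglec5) were more than 0.5 higher on replicate 1, beside 18.5% of all detected genes. Only Cd14 was more than 0.5 lower, beside 13.5%. Of the 3 detected markers of other cell types, Pecam1, an adhesion molecule of endothelium that leukocytes also carry, read 1.19, -0.50, -0.05 and 0.12 on replicates 1 to 4, while Cdh5 (-0.88, -1.07, -0.76 and -0.78) and Cd3d (-0.69, -0.87, -0.65 and -0.53) did not stand apart. The other defining markers of epithelium, fibroblasts, B cells and neutrophils were below detection on at least 2 arrays.

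The promoters of genes that lay low or high on replicate 1 are shown so that the bases beside genes with opposite directions there can be read together. RefSeq promoter sequences (GRCr8) were matched for 33 of the 38 genes and covered 250 bases before and 50 after the start of the gene. They were searched for CACGTG, the palindromic E-box core read by TFEB and related factors that drive lysosome and autophagy genes, which is the same on both strands. It was present in 6 genes (18.2%), beside 6.42% of all 33469 promoters of that length in the table. Base composition goes with the motif: the genes' promoters had a median GC content of 61.5%, all promoters 51.7%, and of promoters at or above 61.5% the motif was in 10.7%. The longer form TCACGTG, or CACGTGA on the other strand, overlaps the core and was in 4 genes (12.1%), beside 3.20% of all promoters. The core began 178 bases before the start in Lamtor1, 86 in Rheb, 39 and 16 in Atg3, 19 in Atg5, 161 and 98 in Pink1, and 7 bases after it in Atg14. Of the 7 genes that differed on replicate 1, Lamtor1 and Pink1 held it, with opposite directions there, while Nbr1, Tax1bp1 and Ulk2 did not, and Rb1cc1 and Rptor had no entry. The 250 bases before the start are printed 5′ to 3′ on the gene's strand, with CACGTG in capitals.
Lamtor1, chr1:165683865-165684114, plus strand: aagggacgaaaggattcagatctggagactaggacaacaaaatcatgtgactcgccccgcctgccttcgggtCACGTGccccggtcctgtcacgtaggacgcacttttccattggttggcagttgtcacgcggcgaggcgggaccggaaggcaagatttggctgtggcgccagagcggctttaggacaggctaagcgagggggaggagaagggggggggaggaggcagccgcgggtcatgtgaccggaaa
Pink1, chr5:155825951-155826200, minus strand: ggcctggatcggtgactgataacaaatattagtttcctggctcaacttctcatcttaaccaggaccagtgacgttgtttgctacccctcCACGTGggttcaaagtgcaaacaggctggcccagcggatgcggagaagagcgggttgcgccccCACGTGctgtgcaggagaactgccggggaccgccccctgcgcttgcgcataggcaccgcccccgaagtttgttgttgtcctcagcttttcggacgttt
Tax1bp1, chr4:83152373-83152622, plus strand: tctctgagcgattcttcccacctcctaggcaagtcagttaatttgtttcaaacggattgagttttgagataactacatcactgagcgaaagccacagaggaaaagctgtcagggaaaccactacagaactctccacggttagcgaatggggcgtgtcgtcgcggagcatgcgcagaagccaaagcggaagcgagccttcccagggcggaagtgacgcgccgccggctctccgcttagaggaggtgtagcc
Nbr1, chr10:86978299-86978548, plus strand: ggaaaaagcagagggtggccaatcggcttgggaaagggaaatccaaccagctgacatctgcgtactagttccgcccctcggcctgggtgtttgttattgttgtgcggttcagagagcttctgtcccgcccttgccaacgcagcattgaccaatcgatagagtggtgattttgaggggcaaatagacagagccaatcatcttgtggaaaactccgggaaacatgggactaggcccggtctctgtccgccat
Ulk2, chr10:47029845-47030094, minus strand: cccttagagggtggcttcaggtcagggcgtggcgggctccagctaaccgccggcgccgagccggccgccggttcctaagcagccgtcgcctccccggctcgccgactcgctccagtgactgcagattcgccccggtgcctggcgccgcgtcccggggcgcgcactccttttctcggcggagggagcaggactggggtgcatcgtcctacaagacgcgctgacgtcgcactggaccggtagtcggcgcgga

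Among the initiation genes, the kinases and their scaffold went different ways on replicate 1. Ulk1, the kinase that starts autophagosome formation, read 2.71, 2.33, 2.38 and 2.04 on replicates 1 to 4 (2.36 ± 0.27, SD, n = 4), and its replicate 1 value was the highest. Its difference from the other arrays was 0.46, but -0.019 with normexp. Ulk2, its close relative, read -1.80, -2.16, -2.84 and -2.55 and had the largest SD of the 32 genes. Replicate 1 lay 0.71 above the others (-2.34 ± 0.45, SD, n = 4), and a further Ulk2 probe was below detection on every array. Rb1cc1, which encodes the scaffold FIP200, read -2.22, -1.54, -1.78 and -1.39, with replicate 1 lowest. Its probes A_44_P620222 and A_64_P087573 differed on replicate 1 by -1.07 and -0.23 from the other arrays, and under normexp by -0.21 and 0.08. Atg101, which stabilises Atg13 in the complex, read 2.67, 3.13, 2.94 and 2.77 (2.88 ± 0.20, SD, n = 4). Replicate 1 was its lowest array, by -0.28 from the mean of the others. The single Atg13 probe gave raw signals of 10.4, 14.7, 24.4 and 17.1 and was well above background on replicates 2 and 3. That spot lies within the margin of a region of dim spots on replicate 4, between rows 166 and 216 and columns 73 and 88 of the array. Its signal on replicate 4 was the second highest before scaling and the lowest of the 4 after it, and whether the region took part was not tested.

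The nucleation genes had a median SD of 0.15 between arrays, beside 0.24 in all detected genes, and replicate 1 did not stand apart in the 3 detected ones. Becn1, the core subunit that regulators bind, read 2.94, 2.83, 3.12 and 3.04 (2.98 ± 0.13, SD, n = 4). Pik3c3, the lipid kinase VPS34 itself, read 2.39, 2.41, 2.22 and 2.05 (2.27 ± 0.17). Atg14, which directs the complex to the site of autophagosome formation, read 0.40, 0.29, 0.65 and 0.41. Replicate 1 was neither the highest nor the lowest array for Becn1, Pik3c3 or Atg14. Uvrag, which takes the place of Atg14 in the endosomal form of the complex, gave raw signals of 10.9, 25.1, 23.5 and 29.4, and replicate 1 was the array on which it was not well above background.

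For membrane supply, Atg9a and Wipi2 were detected and Wipi1 was not. Atg9a, a lipid scramblase carried on small vesicles, read 2.77, 2.42, 2.68 and 2.51 (2.59 ± 0.16, SD, n = 4) over its 2 probes. Wipi2, which recruits the conjugation machinery to the young membrane, read 1.87, 2.17, 2.05 and 1.98 (2.02 ± 0.13). The Wipi1 probe gave raw signals of 2.86, 2.30, 3.73 and 2.98, when the dimmest probes well above background had 9.17, 10.6, 12.2 and 13.2 on those arrays. It was the only measured gene of the 35 that limma against negative controls left undetected, and the looser positive-and-significant flag held for it on 1 array. A single probe stood for Wipi1, so the reading rests on that probe.

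Conjugation genes were detected throughout, and their replicate 1 values split evenly between highest and lowest. Atg3, the E2-like enzyme for LC3, read 3.53, 3.32, 3.23 and 3.39 (3.37 ± 0.13, SD, n = 4). Atg5, part of the conjugate that speeds LC3 lipidation, read -0.35, -0.19, -0.10 and -0.20 (-0.21 ± 0.10), among the 3 smallest SDs. Its single spot lies within the margin of the dim region of replicate 4. Atg7, the E1-like activating enzyme, read 1.37 on replicate 1 and 1.14, 1.16 and 1.15 on the others (1.20 ± 0.11). The other arrays thus lay close together and replicate 1 stood apart, by a difference of 0.21. That difference was 0.057 with normexp and -0.092 with no filter on dim probes. A further Atg7 probe was below detection on all arrays. Atg10, the E2-like enzyme for Atg12, read -0.46, -1.17, -0.75 and -0.78, with replicate 1 highest and replicate 2 lowest, and its other probe was detected on 2 arrays and lay lower on replicate 1, by -1.24. Atg12, the ubiquitin-like partner of Atg5, read -2.15, -1.55, -1.77 and -1.70, lowest on replicate 1. With normexp its difference there turned from -0.47 to 0.18. Atg12 was dim, with a signal of 18.8 on replicate 1, below the offset of 50 that normexp adds. Atg16l1, which places the conjugate on the membrane, read 2.75, 3.23, 3.15 and 3.18, and replicate 1 again stood below 3 arrays that lay close together (3.08 ± 0.22). By Dixon's ratio of the gap to the range, 1 array stood apart in 3 of the 32 detected genes (Atg7, Atg16l1 and the receptor gene Nbr1), beside 8.42% of all detected genes. That array was replicate 1 in all 3, as it was in 6.47% of all detected genes.

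All 5 LC3 and GABARAP genes, whose proteins are linked to the membrane and hold cargo receptors, had SDs of at most 0.20 between arrays. Those SDs are of levels averaged over probes, and the median in all detected genes was 0.24. Single probes reached 0.36 for Map1lc3b and 0.22 for Gabarapl2. Map1lc3a read 5.55, 5.42, 5.48 and 5.17 (5.41 ± 0.17, SD, n = 4). Map1lc3b, the LC3 form most used as a marker of autophagosomes, read 5.24, 5.64, 5.67 and 5.46 (5.51 ± 0.20), with replicate 1 lowest. Its 4 probes, all for the same transcript, lay below the other arrays on replicate 1 by -0.18, -0.24, -0.28 and -0.71. Gabarap read 7.49, 7.62, 7.92 and 7.72 (7.69 ± 0.18), and Gabarapl1 read 5.66, 5.45, 5.63 and 5.33 (5.52 ± 0.15). Gabarapl2, also called GATE-16, read 4.36, 4.19, 4.05 and 4.07 (4.17 ± 0.14). The replicate 1 values of Map1lc3a and Gabarapl1 lay 0.19 above the mean of the other arrays, and under normexp they lay at -0.30 and -0.18.

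For Map1lc3b and Gabarapl1 a probe was printed 10 times on each array. The Map1lc3b probe has a spot within the margin of the dim region of replicate 4. Single spots of the Map1lc3b probe had an SD of 0.099 within an array, and those of the Gabarapl1 probe 0.13. The levels averaged over these spots had an SD of 0.15 between arrays for either probe. An SD of single spots and an SD of averages over spots are different quantities and were not compared.

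Among the cargo receptors, probes detected on all arrays disagreed for Sqstm1 and Optn. Tax1bp1, a receptor for ubiquitin-tagged cargo, read 3.40 on replicate 1 and 4.25, 4.17 and 4.36 on the others (4.04 ± 0.44, SD, n = 4), a level 1.82 times lower on replicate 1. Nbr1, which works alongside p62, read 1.63 on replicate 1 and 2.18, 2.22 and 2.23 on the others (2.07 ± 0.29). Both Nbr1 probes lay lower there, by -0.74 and -0.43. Optn, the receptor optineurin of bacteria and mitochondria, had the smallest SD of all (1.96, 2.00, 1.80 and 1.95), yet its probes did not move as one: A_44_P325808 lay 0.52 above the other arrays on replicate 1 and the other probes at -0.28 and -0.11. Under normexp A_44_P325808 lay at 0.0025. Pink1, the kinase that marks damaged mitochondria for removal, read 0.94, 0.45, 0.41 and 0.18 (0.50 ± 0.32), and both of its probes were highest on replicate 1.

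Sqstm1 depended on the probe. Probe A_44_P1083737 gave raw signals of 8543 on replicate 1 and 23958, 29718 and 32097 on replicates 2 to 4, which are levels of 6.68, 7.74, 7.88 and 7.58. Probe A_44_P367556, for the same transcript accession, read 4.32, 5.42, 5.18 and 5.04. Replicate 1 was therefore low on both, by -1.05 and -0.90. Probe A_64_P149735, listed for another Sqstm1 accession, read 6.04, 5.86, 5.37 and 5.19, and replicate 1 was highest there, by 0.57. Averaged over the 3 probes the gene read 5.68, 6.34, 6.14 and 5.94 (6.03 ± 0.28, SD, n = 4), with a replicate 1 difference of -0.46 that became 0.57 when the median or the first probe stood for the gene. Under quantile normalization the 3 probes differed by -1.16, -1.04 and 0.44, and under normexp by -1.69, -0.71 and -0.027. What sequence each probe covers was not analysed here, so the probes are reported apart.

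**Figure D4:**
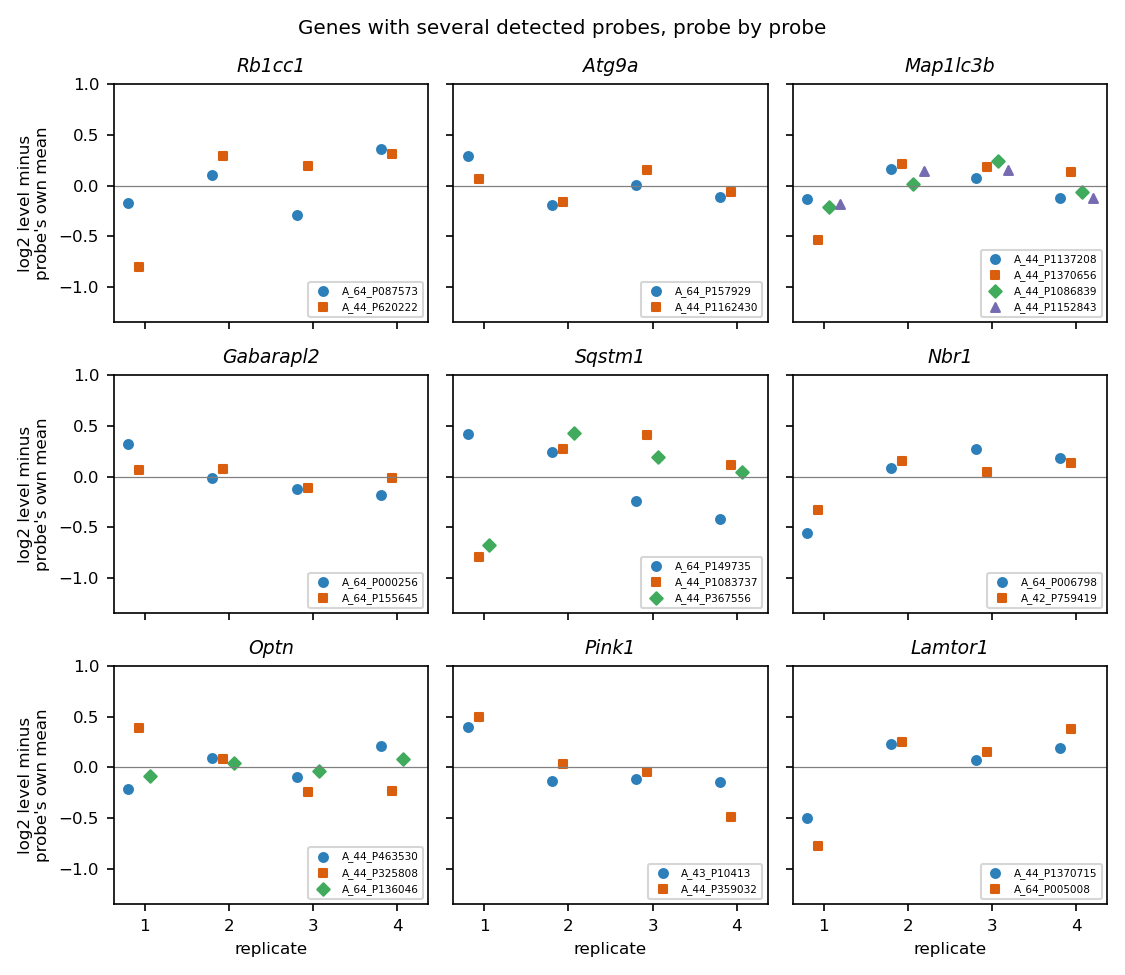
Each panel is a gene with several probes detected on all 4 arrays, and each symbol is a probe's log2 level on a replicate minus that probe's own mean. In 7 of the 9 genes all probes lie on the same side on replicate 1 relative to the other arrays, and in Sqstm1 and Optn they do not.

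Over all genes with several detected probes, 65.7% had every probe on the same side of the other arrays on replicate 1, and among the genes described here 7 of 9 did. Of the 13 genes with more than 1 probe, 4 had probes on both sides of the detection call (Ulk2, Atg7, Atg10 and Tsc1), beside 25.5% of all named genes with several probes. A second probe of Prkaa1 was left out because its only spot was marked as an outlier on an array.

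The mTORC1 genes were all detected, with activators and inhibitors both present. Mtor, the kinase, read -1.09, -1.29, -1.04 and -1.10 (-1.13 ± 0.11, SD, n = 4). Rptor, the subunit that presents substrates to it, read 4.44 on replicate 1 and 3.49, 3.77 and 3.68 on the others (3.85 ± 0.41), a level 1.73 times higher on replicate 1. Rheb, the GTPase that switches the kinase on, read 3.67, 4.24, 4.10 and 3.87, lowest on replicate 1. Lamtor1, which anchors Ragulator in the lysosomal membrane, read 2.69 on replicate 1 and 3.57, 3.44 and 3.61 on the others (3.33 ± 0.43), and both of its probes were lower, by -0.67 and -1.04. The promoter of Lamtor1 is printed above with its E-box core. On the inhibitory side, Tsc1 read 1.86, 1.46, 1.52 and 1.27 on its detected probe (1.53 ± 0.24), and its other 2 probes were detected on 2 and 3 arrays. Those 2 probes lay lower on replicate 1, by -1.003 and -0.77, where the detected probe lay 0.44 higher. The detected probe is listed for a predicted transcript, and the Tsc1 call and level rest on it. The probe for the curated transcript, with raw signals of 12.6 to 35.9, was the one detected on 3 arrays. Tsc2, the GTPase-activating partner of Tsc1, read 4.01, 3.73, 3.84 and 3.70 (3.82 ± 0.14). Prkaa1, the AMPK catalytic subunit that restrains mTORC1 and activates ULK1, read 2.57, 2.68, 2.80 and 2.85 (2.72 ± 0.13).

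Other genes of the pathway were detected about as widely. Of 106 further autophagy and mTORC1 genes in 8 lists, 92 had a probe and 82 (89.1%) were detected on all arrays, beside 53.1% of all named genes. All 14 measured genes of autophagosome formation were detected, among them the lipid transfer gene Atg2a at 3.00 ± 0.16 (SD, n = 4), the protease Atg4a at -0.93 ± 0.28 and its relative Atg4c at -1.15 ± 0.60. All 11 measured fusion genes were detected, with the SNAREs Stx17 at -0.55 ± 0.20, Snap29 at 4.90 ± 0.23 and Vamp8 at 5.98 ± 0.18. Selective receptors reached 10 of 13, with the aggregate receptor Tollip at 3.17 ± 0.27, Calcoco1 at 1.18 ± 0.54 and the mitochondrial receptor Bnip3 at 1.497 ± 0.23. The mitochondrial receptor Fundc1 and the endoplasmic reticulum receptor Retreg1 were detected on no array.

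Upstream of mTORC1 the same breadth was seen. All 11 measured Ragulator and Rag genes were detected, with Lamtor2 at 6.13 ± 0.11 (SD, n = 4), Lamtor3 at 2.58 ± 0.20 and Lamtor4 at 4.04 ± 0.14. The list of mTOR complex subunits had 4 of 5, with the shared subunit Mlst8 at 2.05 ± 0.06, the inhibitor Akt1s1 at -0.26 ± 0.23 and Mapkap1 of mTORC2 at 1.15 ± 0.12. The GATOR complexes and amino acid sensors had 10 of 12, with Nprl2 at 1.52 ± 0.45, Depdc5 at -0.18 ± 0.48 and Mios at -0.90 ± 0.22. In the list of TSC, AMPK and upstream kinases 12 of 15 were detected. For AMPK the catalytic subunit Prkaa1 and the regulatory subunits Prkab1 (3.33 ± 0.15), Prkab2 (-0.58 ± 0.11) and Prkag1 (1.90 ± 0.05) were detected, while the catalytic subunit Prkaa2 and the regulatory subunits Prkag2 and Prkag3 were detected on no array. The TSC subunit Tbc1d7 lay at -0.05 ± 0.19. Of mTORC1 effectors and the TFEB family 10 of 11 were detected, with the S6 kinases Rps6kb1 at 1.26 ± 0.12 and Rps6kb2 at 3.70 ± 0.43 and the translation repressor Eif4ebp1 at 6.05 ± 0.12.

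On replicate 1, 16 of the 82 detected pathway genes lay more than 0.5 below the other arrays and 8 more than 0.5 above, beside 13.5% and 18.5% of all detected genes. Chosen after their values were seen, the Rag GTPase gene Rragd read -0.997 on replicate 1 and 0.12, 0.27 and 0.06 on the others. Its regulators Fnip1 (-1.98 against -0.70, -1.07 and -0.51) and Fnip2 (0.79 against 1.97, 1.80 and 1.90) were low on the same array. So was Mitf, the TFEB relative of macrophages and pigment cells, at 4.18 against 5.30, 5.61 and 5.20. Other genes of the Ragulator and Rag list differed less on replicate 1, and in both directions. The difference was 0.45 for Lamtor5, 0.38 for Slc38a9 and 0.29 for Lamtor3. It was -0.27 for Rraga, -0.23 for Rragc, -0.22 for Lamtor4 and -0.14 for both Lamtor2 and Flcn. Flcn works with the Fnip proteins. Tfeb itself read 0.88, 1.24, 1.51 and 1.30, and Tfe3 read 4.33, 4.21, 4.16 and 3.71, so the family did not share a direction.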

How the data were processed

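RNA of 4 biological replicates of a single serum control group (NR8383 cells) was labelled with Cy3 (100 ng, integrity number above 7.5, per the labels' protocols) and scanned on one-colour Agilent arrays. Per the submitters' processing notes, the scanner software was Agilent Feature Extraction, version 11.0.1.1. Deposited values are linear spot intensity values that the authors had not scaled between arrays, per the file headers: a background-treated processed signal, and median signals. The deposited detection flags are 0 or 1. Probe sequences are not used here.

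Of 62976 spots, 4259 controls and 440 to 1206 outliers per array were left out, and log2 signals were averaged by probe (45280 probes, after 318 without a usable spot). Names came from RefSeq (GRCr8) accessions: 17608 of 40539 accessions, 20983 probes and 16500 genes. Levels are log2 processed signals minus the array's 75th percentile, averaged over a gene's detected probes. A probe was detected where the majority of its spots were well above background on all 4 arrays. Limma tested probes against the 95th percentile of negative controls, with Benjamini-Hochberg adjustment over all probes, and was tested on simulated data. R 4.3.3, limma 3.58.1, data.table (version 1.17.8), pandas 2.3.3 and matplotlib 3.10.9 were used.

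The genes and lists were chosen with earlier results of these data known. The text gives every gene by role, all exceptions, and for the other lists the first 3 detected and those detected on no array. Other pathway genes named beyond this rule were picked with their values in view. The alternatives tried were 2 other detection calls, detection on at least 3 arrays, other probe rules, quantile normalization, the percentile over detected probes, normexp (offset 50), no filter on dim probes, omission of a dim region and each replicate left out.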

Additional observations from a re-analysis of the deposited data

Results flagged for a closer look

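In 3 of the 32 detected genes the gap between replicate 1 and its nearest neighbour took up more of the range than Dixon's 95% critical ratio for 4 samples. The ratio was 0.93 for Nbr1, 0.90 for Atg7 and 0.83 (0.834) for Atg16l1. Replicate 1 was the low array for Nbr1 and Atg16l1 and the high one for Atg7. Chance alone flags about 1 in 20 such groups, and 8.42% of all detected genes passed the ratio on any array.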

How the results depend on the processing

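Percentages beside the counts of detection are the shares of all named genes. The count of 32 detected genes (53.1%) lay between 29 with the first probe of a gene (50.5%) and 34. The latter came with the positive-and-significant flag (66.9%) and with limma (69.3%). Leaving out each replicate gave 32 to 33 (53.3% to 56.2%). The count detected on no array, 1 (34.4%), became 0 with the positive-and-significant flag (9.53%). It became 2 with the first probe (37.0%), which added Ulk2. Genes farthest from their mean on replicate 1 and higher numbered 10, beside 29.5% of all detected genes. They numbered 6, beside 24.6%, when the percentile was taken over probes detected on all arrays. Of the 32 differences on replicate 1, 18 kept their sign under every alternative run for them (10, or 9 for Atg5, whose probe is lost with the dim region) and 9 turned under normexp on median signals. Levels moved beyond the spread between replicates 29 times under normexp, and for all 32 genes under that other percentile, which by construction lowers every level by nearly the same amount. Replicate 1 differences moved beyond it 54 times, of which 24 under normexp. The offset of 50 in normexp compresses log2 values by construction, most for dim probes. The moves and turns under normexp were therefore partly set in advance. Leaving out a replicate moved no level or difference beyond these spreads. The omission of 1 array cannot shift a mean that far, so this outcome was fixed in advance. The median difference of all detected genes on replicate 1 was 0.07, -0.019 with that other percentile and 0.16 without a filter on dim probes. No paired analysis was possible because there is a single group. Signals near background limit Atg13, Uvrag and Wipi1. Some detected genes were also dim: the detected Ulk2 probe had raw signals of 17.6 to 28.5 over the arrays. On replicate 1 the Rb1cc1 probes had 17.0 and 18.8 and Atg12 had 18.8. The dimmest probe well above background on replicate 1 had 9.17.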
